A study of Mus musculus with 18 samples.

Results

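The genes described here are the 41 genes of DNA replication and of the step from G1 into S phase that were followed in RAW264.7 cells, an established mouse macrophage line that divides in culture. Members were the probe sets annotated with 1 of 41 gene symbols, and all 41 were among the 11547 genes tested on these arrays. The symbols were chosen by function, with earlier results of these data known. Counts of members that moved may therefore not be independent of that choice. The cells had received vehicle (0.1% DMSO), a fraction of the herb Hypericum perforatum at 10 ug/mL, or a mixture of 4 compounds found in such extracts (4CS below). That mixture held quercetin (0.08 uM), pseudohypericin (0.03 uM), amentoflavone (0.07 uM) and chlorogenic acid (0.2 uM). Each treatment was given without or with 10 ug/mL lipopolysaccharide (LPS), the bacterial cell wall component that activates macrophages through Toll-like receptor 4, and RNA was taken at 8 h. The labels name DMSO only for the vehicle groups, and a difference in solvent cannot be told apart from treatment with the fraction or with 4CS. All cells were treated in the dark and then kept in ambient light for 30 min. The 6 groups had 3 arrays each. Whether the 3 were grown as separate cultures is not stated in the labels. The p-values therefore speak to variation among these arrays, part of which may be technical.

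Replication starts when the origin recognition complex, Cdc6 and Cdt1 load the ring-shaped Mcm2-7 helicase onto DNA in G1. Cyclin E with Cdk2 and the kinase Cdc7 then allow Cdc45 and GINS to join and open the helicase, after which primase, polymerases, clamp and ligase copy both strands. E2F transcription factors, released from the retinoblastoma protein late in G1, drive many of these genes, and macrophages that are activated by LPS are known to stop dividing. The arrays measured RNA from a whole culture, so fewer cells in S phase and less RNA per cell cannot be told apart.

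Intensities were linear, in arbitrary units, and all arrays had been scaled to 1 target. Member intensities ranged from 41.2 to 19597 over the 738 values, and 4 of them, in Ung and E2f2, lay under the median of their array (52.1 to 66.8). Array 1 of vehicle with LPS held the highest value of its group for 32 of the 41 members, and array 1 of 4CS with LPS for 30. Counts of members that move without the first of these are therefore given without it. Counts of the further gene lists were not made without it. All 10 of 10 macrophage markers were among the tested genes, with group means from 354 to 30521. Of 18 markers of T, B, epithelial, fibroblast, endothelial and fat cells, 4 were among the tested genes (Cd8a, Epcam, Krt5 and Kdr), with group means from 24.5 to 119. Differences below are log2 differences of group means ± standard error, from 1 limma model over all 6 groups. Adjusted p-values are Benjamini-Hochberg values over all 11547 genes, and a gene is said to rise or fall where its adjusted p was under 0.05.

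LPS lowered every member in vehicle-treated cells: 41 of 41 fell and 0 rose, where 21.8% of all tested genes fell and 10.1% rose. The median difference of the members was -0.93, against -0.07 over all tested genes. Falls of at least 2-fold were called for 17 members and for 410 of the 11547 genes. Uracil-DNA glycosylase Ung, which removes uracil from DNA, had the largest fall (-2.75 ± 0.22), and the sliding clamp Pcna the smallest (-0.31 ± 0.07). The 3 arrays with LPS lay below the 3 without for all 41 members, as they did for 26.9% of tested genes. Without array 1 of vehicle with LPS all 41 again fell.

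The fraction alone also lowered most of these genes: 33 of 41 fell and 0 rose without LPS, where 15.3% of tested genes fell and 15.9% rose. Their median difference was -0.60, against 0.02 over all genes, and all 41 differences were below 0, as were those of 5562 of the 11547 genes. Ung (-2.81 ± 0.22), the origin loading factor Cdc6 (-2.36 ± 0.17) and cyclin E2, Ccne2 (-2.15 ± 0.28), moved most. Falls of at least 2-fold were called for 13 members and for 195 of the 11547 genes. The 8 that did not pass the test were Cdt1, Cdc45, Pola1, Prim2, Pold1, Pole, Rfc4 and Tk1, with differences from -0.43 (Tk1) to -0.02 (Rfc4). The 3 fraction arrays lay below the 3 vehicle arrays for 33 members, as for 20.6% of tested genes.

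In fraction-treated cells LPS lowered 31 of 41 members and raised 0 (25.8% and 11.5% of all genes), with a median difference of -0.46 against -0.11 over all genes. After centring each array on the median of its kept probe sets, an alternative chosen after seeing the data, 19 members fell and 2 rose. Set against vehicle with LPS, the fraction with LPS was lower for 19 members and higher for 5, where 12.7% and 11.1% of all genes were lower and higher. The share of members that were higher is near that of all genes. The 5 higher members were Cdt1, Cdc45, Pola2, Rfc4 and Tyms. Without array 1 of vehicle with LPS, 10 members were lower and 3 higher, and with each array centred on its median 13 were lower and 2 higher.

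The LPS difference itself depended on the fraction for 11 members. The interaction, the LPS difference in fraction-treated cells minus that in vehicle-treated cells, was above the threshold and positive for Orc1, Cdc6, Mcm10, Pola2, Rfc3, Fen1, Rpa2, Tyms, Chek1, Uhrf1 and Slbp. It was called negative for 0 members. Over all tested genes it was called positive for 0.892% and negative for 1.25%. It lay above 0 for 39 of the 41 and below 0 for 2, where it lay below 0 for 6260 of the 11547 genes. The median was 0.46 for the members, against -0.03 over all genes. For these 11, LPS and fraction together differed less from vehicle than the sum of their separate log2 differences. The 4 simple contrasts named below are LPS against none in vehicle and in fraction, and fraction against vehicle without and with LPS. This count is the least stable one: 17 members were called without array 1 of vehicle with LPS, 7 without array 2, and 0 when the arrays numbered 2 were left out of all 6 groups.

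**Figure D1:**
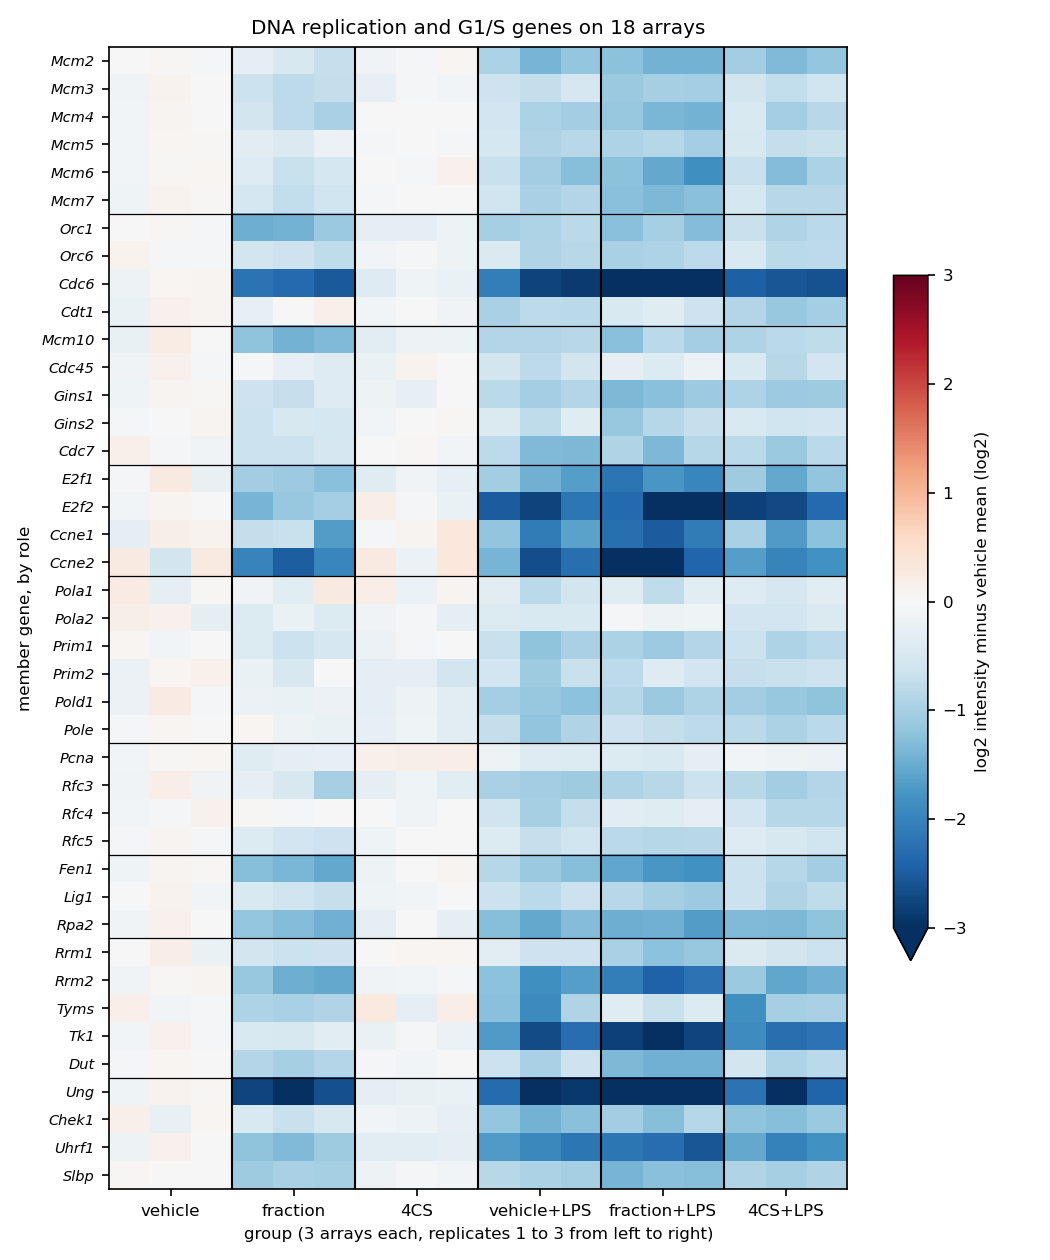
Log2 intensity of the 41 members (rows, ordered by role) on the 18 arrays (columns, 3 per group), each minus that gene's vehicle mean; the colour scale ends at -3, so lower values share its darkest blue. The vehicle and 4CS columns are pale, the fraction columns are blue for most genes, and the columns with LPS are blue for nearly all genes, darkest for Cdc6, E2f2, Ccne2, Tk1 and Ung.

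No member passed the test for the 4-compound mixture. Limma called 0 of 41 for 4CS against vehicle without LPS, with LPS, or over both states, as it called 0% of all tested genes. An unadjusted p under 0.05 was found for 4, 1 and 1 members, and for 565, 934 and 1030 of the 11547 genes. The 95% confidence interval of the difference lay within 0.5 of 0 for 32 members without LPS and for 34 with LPS, and within 1 of 0 for all 41 in both. The widest bounds were -0.70 for Ung without LPS and 0.86 for Ccne2 with LPS, so a change of that size in those genes was not excluded. LPS lowered 39 of 41 members in 4CS-treated cells and raised 0 (16.3% and 8.32% of all genes), with a median difference of -0.76. The exceptions were Pola1 at -0.44 ± 0.16 (adjusted p = 0.052) and Prim2 at -0.30 ± 0.14 (adjusted p = 0.15). The 4CS by LPS interaction was called for 0 members, and 3 had an unadjusted p under 0.05, as did 412 of the 11547 genes. Compared directly, the fraction was lower than 4CS for 31 members and higher for 0 without LPS (15.4% and 17% of all genes). With LPS it was lower for 21 and higher for 4 (16.2% and 12%).

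Averaged as the median over the 41 members of the log2 intensity minus the vehicle mean, the groups fell into an order. Vehicle stood at -0.0023 ± 0.075 (SD, n = 3), 4CS at -0.079 ± 0.033 and the fraction at -0.63 ± 0.074. With LPS, 4CS stood at -0.88 ± 0.098, vehicle at -0.92 ± 0.12 and the fraction at -1.15 ± 0.075. Vehicle and 4CS overlapped within their spread in both LPS states. Vehicle had the highest group mean for 34 members and 4CS for 7, and fraction with LPS had the lowest for 27.

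The sequence around the annotated start of these genes was looked at because they moved together. RefSeq (assembly GRCm38.p6) gave windows from 250 bases before to 50 after the start for 35 of the 41 members; Ccne2, Gins1, Gins2, Mcm4, Pole and Prim2 were not matched. The E2F words searched were TTTCCCGC, TTTCGCGC, TTTGCCGC and TTTGGCGC, on both strands, and neighbouring words may overlap. At least 1 of them was found for 13 of 35 members (37.1%) and for 575 of 17492 protein-coding genes (3.29%). Other replication genes, the list described further on that leaves out the members, had one in 11 of 31 (35.5%), a share close to that of the members. The mitosis genes had an E2F word in 1 of 22 genes (4.55%). The word known from promoters of mitotic genes, the cell cycle homology region (TTTGAA or TTCGAA, both strands), was found in 77.3% of those, in 20.0% of members and in 20.2% of protein-coding genes. A CCAAT box, the NF-Y motif, was found in 54.3%, 77.3% and 42.3% of members, mitosis genes and protein-coding genes.

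Shown here as examples are the 250 bases in front of 4 members, 5′ to 3′ on the strand of the gene, with E2F words in capitals. Most of these 4 hold a word, which is not the share over the members, where 13 hold one and 22 do not. Cdc6 and Orc1 hold 1 word each, Mcm6 holds 3 (the first 2 overlap), and Ung, which had the largest fall for LPS in vehicle and for the fraction without LPS, holds none in this window. They lie at chr11:98907901-98908150 (+) for Cdc6, chr4:108579204-108579453 (+) for Orc1, chr1:128359706-128359955 (-) for Mcm6 and chr5:114130185-114130434 (+) for Ung.
Cdc6: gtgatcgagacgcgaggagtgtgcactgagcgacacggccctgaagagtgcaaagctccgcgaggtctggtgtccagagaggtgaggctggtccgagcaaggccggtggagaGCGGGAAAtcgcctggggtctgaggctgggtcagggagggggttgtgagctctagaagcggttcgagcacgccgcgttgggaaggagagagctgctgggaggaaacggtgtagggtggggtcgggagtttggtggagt
Orc1: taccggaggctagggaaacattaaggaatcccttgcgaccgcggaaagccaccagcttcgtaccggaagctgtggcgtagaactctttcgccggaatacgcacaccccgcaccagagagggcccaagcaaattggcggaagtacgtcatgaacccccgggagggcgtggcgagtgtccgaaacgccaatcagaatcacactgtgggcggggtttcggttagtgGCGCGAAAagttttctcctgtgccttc
Mcm6: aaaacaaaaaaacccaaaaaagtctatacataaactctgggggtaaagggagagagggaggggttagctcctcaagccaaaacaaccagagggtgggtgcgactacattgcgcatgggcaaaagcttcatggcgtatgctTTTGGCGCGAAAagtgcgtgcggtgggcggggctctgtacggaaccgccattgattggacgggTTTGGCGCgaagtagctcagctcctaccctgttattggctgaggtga
Ung: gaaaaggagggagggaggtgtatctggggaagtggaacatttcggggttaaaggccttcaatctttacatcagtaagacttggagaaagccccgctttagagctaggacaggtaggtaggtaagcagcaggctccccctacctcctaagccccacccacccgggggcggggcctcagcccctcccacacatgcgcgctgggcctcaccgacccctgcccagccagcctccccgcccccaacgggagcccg
The word of Cdc6 spans positions -138 to -131 from the start site and that of Orc1 -27 to -20. The 13 members with a word and the 22 without had medians of -0.91 and -1.01 for LPS in vehicle-treated cells, and of -0.59 and -0.63 for the fraction without LPS. Of the 11 members with a called interaction, 4 held a word and 7 did not. A match is a string of letters, not a bound site. The windows follow the annotated start, and whether each covers the promoter in use was not checked. A member counted as without a word may therefore hold one outside its window.

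Origin licensing was represented by Orc1 and Orc6 of the origin recognition complex and by the loaders Cdc6 and Cdt1. Cdc6 fell with either agent and was lowest with both. Without LPS, Cdc6 measured 1801, 2087 and 2110 in vehicle, 432, 395 and 346 in fraction and 1532, 1835 and 1742 in 4CS. With LPS, Cdc6 measured 471, 289 and 271 in vehicle, 193, 205 and 149 in fraction and 363, 339 and 326 in 4CS. The fraction arrays without LPS lay within the range of the vehicle arrays with LPS, and fraction with LPS lay below every other group. LPS lowered Cdc6 5.99-fold in vehicle-treated cells (-2.58 ± 0.17, adjusted p = 1.10e-09) and 2.15-fold in fraction-treated cells (-1.11 ± 0.17, adjusted p = 3.40e-05). The fraction lowered it 5.12-fold without LPS and 1.84-fold with LPS, and the interaction was 1.48 ± 0.24 (adjusted p = 0.0024).

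Orc1, the largest subunit of the complex, had a different order. Without LPS, Orc1 measured 839, 848 and 816 in vehicle, 301, 313 and 385 in fraction and 683, 696 and 745 in 4CS. With LPS, Orc1 measured 421, 436 and 478 in vehicle, 351, 420.5 and 336 in fraction and 524, 450.0 and 474 in 4CS. The lowest group was the fraction without LPS, and its arrays overlapped those of fraction with LPS. LPS lowered it in vehicle-treated cells (-0.91 ± 0.12, adjusted p = 5.90e-06) but gave 0.15 ± 0.12 (adjusted p = 0.33) in fraction-treated cells, and the interaction was 1.06 ± 0.16 (adjusted p = 0.0016). Orc6 fell with LPS (-0.73 ± 0.12) and with the fraction (-0.64 ± 0.12), with an interaction of 0.48 ± 0.17 (adjusted p = 0.17) that did not pass.

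Cdt1, the partner of Cdc6 in loading the helicase, fell with LPS and did not pass the test for the fraction without LPS. Without LPS, Cdt1 measured 6467, 8131 and 7945 in vehicle, 6332, 7435 and 8307 in fraction and 7024, 7453 and 6953 in 4CS. With LPS, Cdt1 measured 3794, 4318 and 4270 in vehicle, 5422, 5837 and 4889 in fraction and 4084, 3427 and 3674 in 4CS. All 3 arrays of fraction with LPS lay above all 6 of the other groups with LPS. Cdt1 was -0.03 ± 0.11 in the fraction without LPS and higher by 0.38 ± 0.11 (adjusted p = 0.012) in the fraction with LPS than in vehicle with LPS.

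The 6 subunits of the Mcm2-7 helicase, which unwinds DNA at the fork, fell in step. All 6 fell with LPS in vehicle-treated cells (-1.17 to -0.62), in fraction-treated cells and with the fraction alone (-0.76 to -0.32). With LPS, 4 of 6 were lower in the fraction than in vehicle, and no interaction was called. Mcm2 had the largest LPS difference of the 6 (-1.17 ± 0.11). Without LPS, Mcm2 measured 4403, 4508 and 4250 in vehicle, 3560, 3143 and 2732 in fraction and 4085, 4233 and 4598 in 4CS. With LPS, Mcm2 measured 2270, 1668 and 1973 in vehicle, 1856, 1648 and 1636 in fraction and 2145, 1742 and 1956 in 4CS. The LPS arrays of all treatments lay below every array without LPS, and the fraction arrays lay between the vehicle arrays of both states.

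Mcm4 had the largest fall with the fraction alone (-0.76 ± 0.14, adjusted p = 2.66e-04). Without LPS, Mcm4 measured 5975, 6601 and 6279 in vehicle, 4319, 3666 and 3192 in fraction and 6215, 6204 and 6315 in 4CS, and the fraction arrays stood apart from the other 6. Mcm6 had the largest difference between fraction and vehicle with LPS (-0.54 ± 0.16, adjusted p = 0.017). Without LPS, Mcm6 measured 7819, 8481 and 8603 in vehicle, 6293, 5192 and 5775 in fraction and 8331, 7974 and 9044 in 4CS. With LPS, Mcm6 measured 5184, 4042 and 3423 in vehicle, 3541, 2842 and 2328 in fraction and 5209, 3363 and 4289 in 4CS. With LPS, array 1 of the fraction lay above array 3 of vehicle and the other fraction arrays lay below that group. The LPS differences of Mcm6 in vehicle and in fraction were close, with an interaction of -0.01 ± 0.22 (adjusted p = 0.99) and a 95% interval of -0.47 to 0.46.

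Helicase activation was represented by Cdc45 and the GINS subunits Gins1 and Gins2, which complete the active helicase, by Mcm10, which helps to start it, and by the kinase Cdc7. All 5 fell with LPS in vehicle-treated cells, and 3 in fraction-treated cells. The fraction alone lowered 4 of 5. Cdc7 had the largest LPS difference (-1.15 ± 0.15, adjusted p = 8.29e-06). Without LPS, Cdc7 measured 1068, 931 and 885 in vehicle, 618, 610.1 and 675 in fraction and 965, 979.6 and 907 in 4CS. With LPS, Cdc7 measured 557, 384 and 377 in vehicle, 510.4, 377 and 534 in fraction and 547, 444 and 550.3 in 4CS. Array 1 of vehicle with LPS stood above the other arrays of its group, and vehicle and fraction overlapped with LPS (0.12 ± 0.15).

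Mcm10 resembled Orc1. Without LPS, Mcm10 measured 1247, 1713 and 1445 in vehicle, 631, 546 and 579 in fraction and 1166, 1316 and 1319 in 4CS. With LPS, Mcm10 measured 796, 786 and 815 in vehicle, 614, 838 and 717 in fraction and 767, 834 and 858 in 4CS. The fraction arrays without LPS were the lowest of those without LPS, and the fraction arrays with LPS overlapped both them and the vehicle arrays with LPS. Mcm10 fell with the fraction (-1.32 ± 0.12, adjusted p = 9.12e-08), and LPS gave -0.87 ± 0.12 (adjusted p = 1.60e-05) in vehicle and 0.30 ± 0.12 (adjusted p = 0.059) in the fraction. The interaction was 1.16 ± 0.17 (adjusted p = 0.001); with the mean of its kept probe sets in place of the brightest it did not pass.

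Cdc45 was one of the 5 members higher in the fraction with LPS (0.33 ± 0.12, adjusted p = 0.048). Without LPS, Cdc45 measured 1132, 1314 and 1185 in vehicle, 1163, 1011 and 930.5 in fraction and 1055, 1309 and 1208 in 4CS, with the fraction arrays overlapping vehicle. With LPS, Cdc45 measured 821, 704 and 827 in vehicle, 981, 912 and 1066 in fraction and 885, 680.2 and 815 in 4CS, with the fraction arrays above the others. This call was lost under 15 of 21 other settings. Gins2, by contrast, was lower in the fraction with LPS (-0.37 ± 0.12, adjusted p = 0.025). It measured 823, 664 and 874 in vehicle, 512, 621 and 698 in fraction and 817, 740.3 and 748 in 4CS with LPS, and array 3 of the fraction overlapped the vehicle group.

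**Figure D2:**
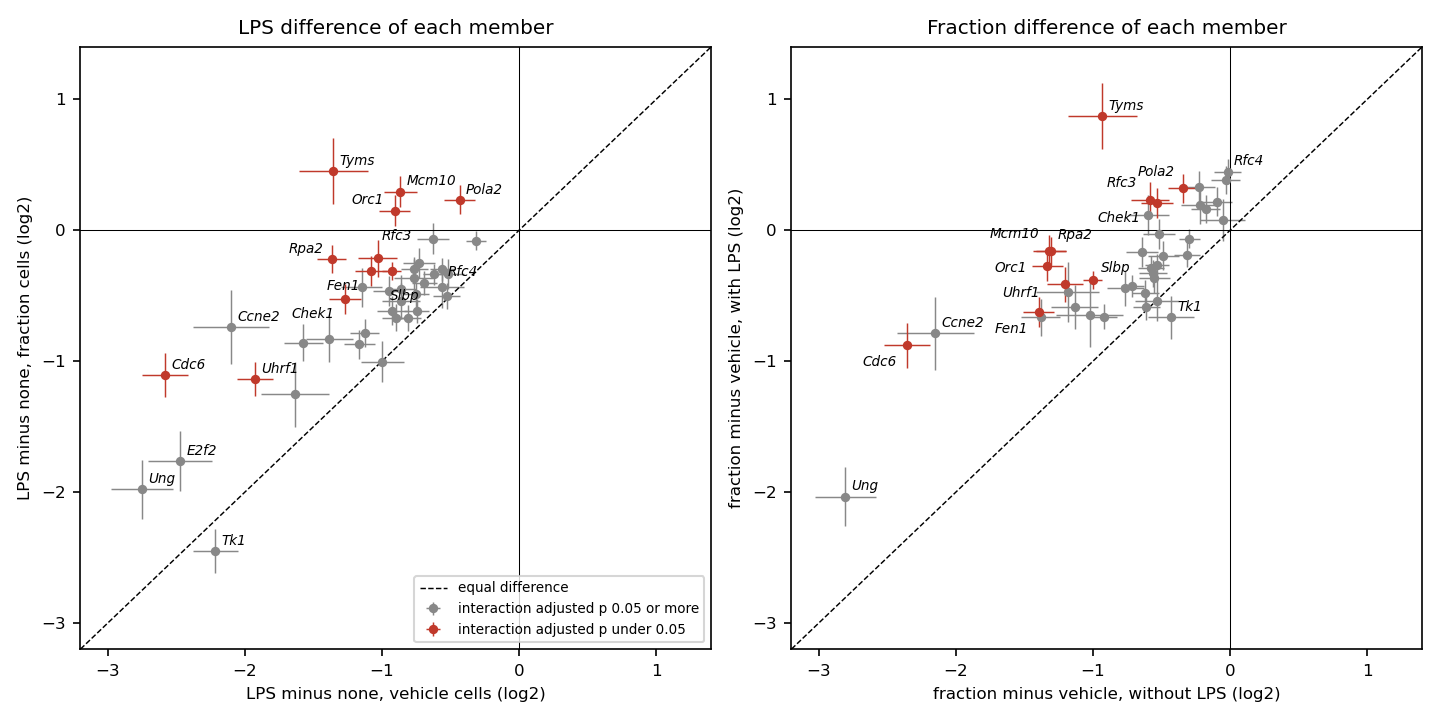
Log2 differences of the 41 members with standard errors as bars: left, LPS minus none in vehicle-treated (x) against fraction-treated cells (y); right, fraction minus vehicle without LPS (x) against with LPS (y). Of the points, 39 lie above the dashed line of equal differences, and the 11 in red are those with a called interaction; the lower points Tk1 and Mcm6 are the exceptions.

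The polymerases and primase fell with LPS, and few of them passed the test for the fraction. LPS lowered all 6 in vehicle-treated cells (-1.13 to -0.43), and 4 of 6 in fraction-treated cells. The fraction alone lowered 2 of 6, the primase subunit Prim1 and the polymerase alpha subunit Pola2. Pold1, the catalytic subunit of polymerase delta, had the largest LPS difference (-1.13 ± 0.11, adjusted p = 1.42e-07). Without LPS, Pold1 measured 1421, 1901 and 1541 in vehicle, 1428, 1402 and 1436 in fraction and 1306, 1459 and 1280 in 4CS. With LPS, Pold1 measured 792, 733 and 690.0 in vehicle, 889.6, 744 and 850.0 in fraction and 776, 726 and 696 in 4CS. Every array with LPS lay below every array without, and the fraction arrays overlapped vehicle in both states.

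Prim1, which makes the RNA primer, fell with the fraction alone (-0.52 ± 0.12, adjusted p = 0.002). Without LPS, Prim1 measured 3320, 3031 and 3228 in vehicle, 2420, 2025 and 2266 in fraction and 2807, 3083 and 3231 in 4CS, and the fraction arrays lay below the rest. With LPS, Prim1 measured 2016, 1374 and 1633 in vehicle, 1644, 1498 and 1723 in fraction and 2037, 1679 and 1811 in 4CS, and vehicle and fraction overlapped (-0.03 ± 0.12). Pola2 was lower in the fraction without LPS and higher in it with LPS. Without LPS, Pola2 measured 1536, 1486 and 1112 in vehicle, 1029, 1179 and 1019 in fraction and 1258, 1326 and 1109 in 4CS. With LPS, Pola2 measured 1031, 1002 and 995 in vehicle, 1319, 1224 and 1243 in fraction and 915, 918 and 1005 in 4CS. The fraction arrays with LPS lay above all others with LPS, at 0.32 ± 0.11 (adjusted p = 0.039) against vehicle. Without LPS the difference was -0.35 ± 0.11 (adjusted p = 0.021), and array 2 of the fraction overlapped array 3 of vehicle. The interaction was 0.67 ± 0.16 (adjusted p = 0.029). The higher call was lost under 14 of 21 other settings and the interaction under 15 of 27. The catalytic subunits Pola1 and Pole fell with LPS (-0.56 ± 0.16 and -0.93 ± 0.11), and the primase subunit Prim2 fell in vehicle-treated cells (-0.77 ± 0.14).

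The clamp Pcna, which holds the polymerase on DNA, and the clamp loader subunits Rfc3, Rfc4 and Rfc5 fell with LPS in vehicle-treated cells (4 of 4). In fraction-treated cells 2 of 4 fell. Without LPS, Pcna measured 15946, 17473 and 17636 in vehicle, 13198, 14000 and 14345 in fraction and 18789, 19160 and 19597 in 4CS. With LPS, Pcna measured 15342, 13024 and 12813 in vehicle, 12887, 12336 and 14105 in fraction and 16098, 15355 and 15096 in 4CS. The 4CS arrays without LPS lay above those of vehicle, a difference that limma did not call, and the arrays of vehicle with LPS and of the fraction in both LPS states lay below vehicle without LPS. Array 1 of 4CS with LPS overlapped that group. The differences were -0.31 ± 0.07 (adjusted p = 0.0028) with LPS and -0.30 ± 0.07 (adjusted p = 0.0044) with the fraction. After centring each array on the median of its kept probe sets the LPS value of Pcna was -0.19 with an adjusted p of 0.10.

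Rfc4 stood at -0.02 ± 0.10 (adjusted p = 0.92) in the fraction without LPS, the smallest difference of the 41. Without LPS, Rfc4 measured 2705, 2759 and 3123 in vehicle, 2905, 2754 and 2816 in fraction and 2842, 2653 and 2883 in 4CS. With LPS, Rfc4 measured 1891, 1435 and 1754 in vehicle, 2305, 2232 and 2349 in fraction and 1914, 1591 and 1588 in 4CS. The 3 groups without LPS overlapped, and with LPS the fraction arrays lay above all 6 others. LPS lowered Rfc4 in vehicle (-0.76 ± 0.10, adjusted p = 7.15e-06) and in the fraction (-0.30 ± 0.10, adjusted p = 0.022). The fraction with LPS was 1.36-fold higher than vehicle with LPS (0.45 ± 0.10, adjusted p = 0.0023).

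Rfc3 fell with LPS (-1.03 ± 0.14, adjusted p = 1.28e-05) and with the fraction (-0.59 ± 0.14, adjusted p = 0.0032). Without LPS, Rfc3 measured 1623, 1997 and 1604 in vehicle, 1428, 1242 and 866 in fraction and 1441, 1580 and 1395 in 4CS. With LPS, Rfc3 measured 878, 839 and 825 in vehicle, 912, 981 and 1101 in fraction and 978, 838 and 943 in 4CS. The fraction arrays with LPS lay above those of vehicle, at 0.23 ± 0.14 (adjusted p = 0.26), and the interaction was 0.82 ± 0.20 (adjusted p = 0.032). That interaction was lost under 13 of 27 other settings. Rfc5 fell in all 4 simple contrasts, at -0.56 ± 0.09 with LPS in vehicle and -0.27 ± 0.09 (adjusted p = 0.031) for the fraction with LPS. The last call was lost under 10 of 21 other settings. With LPS, Rfc5 measured 2540, 2060 and 2228 in vehicle, 1914, 1844 and 1893 in fraction and 2580, 2408 and 2227 in 4CS. The fraction arrays of Rfc5 lay below both other groups.

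Fen1, the nuclease that trims the ends of lagging strand fragments, and Rpa2, a subunit of the single-strand binding protein RPA, were among the members that the fraction lowered most. Without LPS, Rpa2 measured 2061, 2423 and 2208 in vehicle, 990.4, 897 and 819 in fraction and 1861, 2213 and 1855 in 4CS. With LPS, Rpa2 measured 924, 767 and 904 in vehicle, 804, 816 and 699 in fraction and 884, 873 and 965 in 4CS. All arrays with LPS and the fraction arrays without it read 990.4 or less, and the 6 arrays of vehicle and 4CS without LPS read 1855 or more. The fraction lowered Rpa2 2.47-fold without LPS (-1.31 ± 0.11, adjusted p = 2.36e-08) and gave -0.16 ± 0.11 (adjusted p = 0.31) with it, and LPS gave -0.22 ± 0.11 (adjusted p = 0.11) in fraction-treated cells. Its interaction was 1.15 ± 0.15 (adjusted p = 3.68e-04), the smallest adjusted p of the 11.

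Without LPS, Fen1 measured 4655, 5410 and 5178 in vehicle, 2103, 1947 and 1745 in fraction and 4598, 5057 and 5371 in 4CS. With LPS, Fen1 measured 2798, 2344 and 2098 in vehicle, 1708, 1505 and 1451 in fraction and 3237, 2825 and 2473 in 4CS. The fraction arrays lay below the vehicle arrays in both states. The differences were -1.40 ± 0.12 (adjusted p = 2.67e-08) without LPS and -0.63 ± 0.12 (adjusted p = 5.26e-04) with it, and the interaction was 0.77 ± 0.16 (adjusted p = 0.017). The replicative ligase Lig1 was lower in all 4 simple contrasts, from -0.69 for LPS in vehicle to -0.29 for the fraction with LPS. The last call was lost under 8 of 21 other settings.

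**Figure D3:**
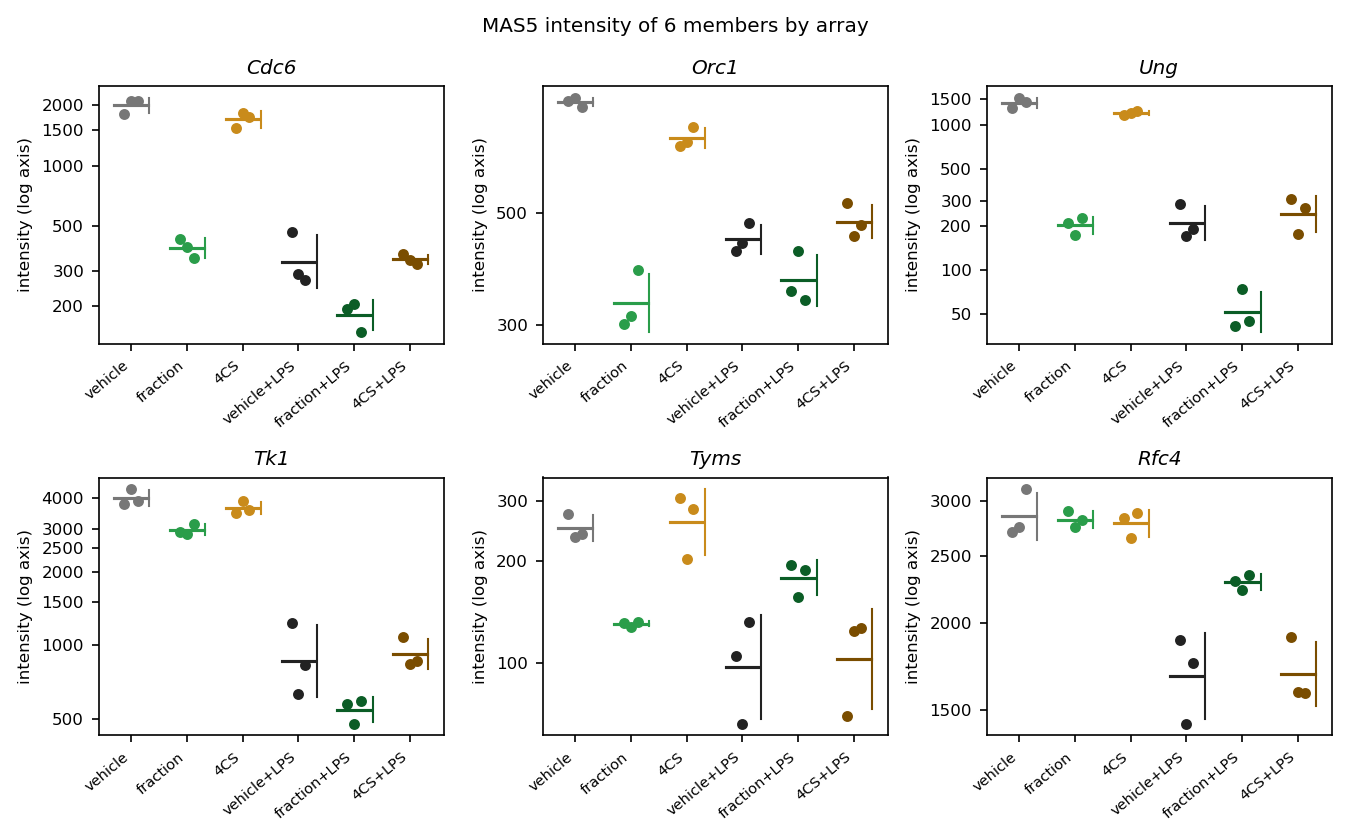
Intensity of 6 members on each array (points, log axis) with the geometric mean (line) and 1 SD of the log2 values (bar beside the points), 3 arrays per group. Cdc6 and Ung were lowest in fraction with LPS, and Orc1 was lowest in fraction without LPS. Tk1 in fraction without LPS lay below vehicle, and every group with LPS lay below every group without it. Tyms and Rfc4 lay above vehicle with LPS in fraction with LPS.

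The 5 genes of nucleotide supply differed in how they moved. All 5 fell with LPS in vehicle-treated cells, and 4 in fraction-treated cells and with the fraction alone. Thymidine kinase, Tk1, which salvages thymidine, fell mainly with LPS. Without LPS, Tk1 measured 3788, 4357 and 3905 in vehicle, 2920, 2860 and 3152 in fraction and 3494, 3906 and 3577 in 4CS. With LPS, Tk1 measured 1236, 628 and 828 in vehicle, 572, 477 and 591 in fraction and 1078, 837 and 862 in 4CS. LPS lowered it 4.64-fold in vehicle (-2.22 ± 0.17, adjusted p = 6.67e-09) and 5.47-fold in the fraction (-2.45 ± 0.17, adjusted p = 1.24e-09). The fraction alone gave -0.43 ± 0.17 (adjusted p = 0.054). Its 3 arrays lay below those of vehicle, and 8 of 21 other settings called this fall. With LPS the fraction was lower than vehicle (-0.67 ± 0.17, adjusted p = 0.0058), and all 3 of its arrays lay below the others. Tk1 and Mcm6 were the 2 members whose LPS difference was not smaller in size in the fraction, and the interaction of Tk1 was -0.24 ± 0.23 (adjusted p = 0.73).

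Thymidylate synthase, Tyms, which makes thymidylate anew, was lowered by the fraction without LPS and higher in it with LPS. Without LPS, Tyms measured 275, 234 and 239.9 in vehicle, 131, 128 and 132 in fraction and 306, 202 and 285 in 4CS. With LPS, Tyms measured 105, 66.3 and 132 in vehicle, 194, 156 and 187 in fraction and 69.6, 124 and 127 in 4CS. The values 66.3 and 69.6 lay close to the medians of their arrays, 58.9 and 54.8. The fraction arrays with LPS lay above those of the other groups with LPS and above the fraction arrays without LPS. LPS lowered Tyms in vehicle (-1.36 ± 0.25, adjusted p = 3.45e-04) and gave 0.45 ± 0.25 (adjusted p = 0.17) in the fraction. Against vehicle with LPS the fraction with LPS was 1.83-fold higher (0.87 ± 0.25, adjusted p = 0.015), and the interaction was 1.81 ± 0.36 (adjusted p = 0.01). The higher call was lost under 6 of 20 other settings, among them the mean of its kept probe sets.

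Ribonucleotide reductase, which makes deoxyribonucleotides, was measured by its large subunit Rrm1 and its S phase subunit Rrm2. Without LPS, Rrm2 measured 8126, 9008 and 9301 in vehicle, 4007, 3179 and 3027 in fraction and 8133, 8246 and 8654 in 4CS. With LPS, Rrm2 measured 3745, 2456 and 2810 in vehicle, 2095, 1632 and 1894 in fraction and 4085, 2995 and 3253 in 4CS. The groups without LPS separated the fraction from the rest, and fraction with LPS lay below all others. The differences were -1.38 ± 0.14 (adjusted p = 4.89e-07) with the fraction, -1.57 ± 0.14 (adjusted p = 8.38e-08) with LPS, and -0.67 ± 0.14 (adjusted p = 0.0019) for the fraction against vehicle with LPS. Rrm1 and Dut, which removes dUTP, were lower in all 4 simple contrasts, from -0.50 to -0.61 for Rrm1 and from -0.49 to -0.92 for Dut.

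The 4 members of G1/S control were the transcription factors E2f1 and E2f2 and the cyclins E1 and E2 (Ccne1 and Ccne2), which activate Cdk2. Each fell with LPS in vehicle, with LPS in the fraction, and with the fraction alone. Their median difference for LPS in vehicle-treated cells was -1.87. Without LPS, E2f2 measured 489, 541 and 512 in vehicle, 194, 233 and 255 in fraction and 594, 495 and 451 in 4CS. With LPS, E2f2 measured 91.8, 75.3 and 114 in vehicle, 103, 56.2 and 51.1 in fraction and 74.2, 78.4 and 101 in 4CS. The fraction arrays without LPS lay below vehicle, at -1.19 ± 0.23 (adjusted p = 5.80e-04), and all 9 arrays with LPS lay below them. LPS in vehicle gave -2.47 ± 0.23 (adjusted p = 1.29e-07).

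Without LPS, Ccne2 measured 1874, 1063 and 1885 in vehicle, 387, 278 and 399 in fraction and 1861, 1385 and 1947 in 4CS. With LPS, Ccne2 measured 593, 247 and 324 in vehicle, 178, 172 and 300.3 in fraction and 493, 387 and 441 in 4CS. The fraction arrays without LPS lay in the range of the vehicle arrays with LPS, and array 2 of vehicle was low for its group. The fraction lowered it 4.44-fold without LPS (-2.15 ± 0.28, adjusted p = 9.40e-06). With LPS the value was -0.79 ± 0.28 (adjusted p = 0.047), a call lost under 12 of 21 other settings. E2f1 fell in all 4 simple contrasts, at -1.38 ± 0.17 with LPS and -1.13 ± 0.17 with the fraction. Ccne1 fell with both agents given alone (-1.63 ± 0.25 and -1.03 ± 0.25).

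The other 4 members were Ung, the checkpoint kinase Chek1, Uhrf1, which guides DNA methylation to new strands, and Slbp, which binds histone mRNA in S phase. All 4 fell with LPS in both treatments and with the fraction alone. Without LPS, Ung measured 1300, 1522 and 1451 in vehicle, 210.4, 175 and 228 in fraction and 1178, 1217 and 1245 in 4CS. With LPS, Ung measured 285, 172 and 192 in vehicle, 41.2, 74.3 and 44.7 in fraction and 307, 176 and 267 in 4CS. Fraction without LPS and vehicle with LPS overlapped, and fraction with LPS lay below all else. Ung fell 7.00-fold with the fraction (-2.81 ± 0.22, adjusted p = 1.80e-08) and 6.73-fold with LPS (-2.75 ± 0.22, adjusted p = 2.11e-08). In fraction with LPS its geometric mean of 51.5 lay under the array median, so the further fall is a bound. Measured against that median it was at least 3.20-fold lower than vehicle with LPS and at least 3.08-fold lower than the fraction alone.

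Without LPS, Uhrf1 measured 4343, 5269 and 4837 in vehicle, 2080, 1915 and 2275 in fraction and 3806, 3789 and 3892 in 4CS. With LPS, Uhrf1 measured 1485, 1266 and 1076 in vehicle, 1074, 983 and 809 in fraction and 1657, 1187 and 1357 in 4CS. The fraction arrays without LPS lay between those of vehicle in the 2 LPS states, and fraction with LPS lay just below vehicle with LPS. Uhrf1 fell with the fraction (-1.20 ± 0.13, adjusted p = 1.06e-06) and with LPS (-1.92 ± 0.13, adjusted p = 1.91e-09), and the interaction was 0.79 ± 0.19 (adjusted p = 0.03). That interaction was lost under 14 of 27 other settings. Slbp had narrow groups. Without LPS, Slbp measured 5334, 5230 and 5171 in vehicle, 2523, 2683 and 2644 in fraction and 4728, 5066 and 4949 in 4CS. With LPS, Slbp measured 2935, 2704 and 2627 in vehicle, 1986, 2192 and 2165 in fraction and 2787, 2630 and 2813 in 4CS. The fraction arrays without LPS lay in the range of vehicle with LPS or just below it, and fraction with LPS was the lowest group. The interaction of Slbp was 0.62 ± 0.10 (adjusted p = 0.0018). Its fall with LPS in fraction-treated cells (-0.31 ± 0.07, adjusted p = 0.0015) did not hold with the mean of its kept probe sets, which gave 0.025. Without LPS, Chek1 measured 1526, 1176 and 1422 in vehicle, 998, 864 and 977 in fraction and 1289, 1229 and 1153 in 4CS. With LPS, Chek1 measured 616, 516 and 575 in vehicle, 659.5, 567 and 754 in fraction and 594, 562 and 627 in 4CS. LPS lowered Chek1 in vehicle (-1.27 ± 0.12, adjusted p = 1.20e-07) and in the fraction (-0.53 ± 0.12, adjusted p = 0.0015), and vehicle and fraction overlapped with LPS.

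Over the 4 simple contrasts, 18 members fell in all 4. They were 4 with a called interaction (Cdc6, Fen1, Uhrf1 and Slbp) and 14 without, among them Mcm3, Mcm4, Mcm6, Mcm7, Rrm1, Rrm2, Dut and Ung. Several of their calls were lost under many of the 21 other settings. For LPS in the fraction, Fen1 was lost under 13, Ccne2 under 11 and Gins2 under 9. For the fraction with LPS, Ccne2 was lost under 12, Rfc5 under 10, Gins1 and Uhrf1 under 9, Lig1 under 8, and Mcm4 and Gins2 under 7. Pola1, Pold1 and Pole fell with LPS in both treatments and passed neither fraction contrast. Their values for the fraction without LPS were -0.05, -0.18 and -0.10. The 41 other kept probe sets of the members measure the same genes on the same arrays, and were read from a separate fit of all kept probe sets. The share called over all probe sets of that fit was not counted. Of these 41, 31 fell with LPS in vehicle-treated cells and 0 rose. With LPS in fraction-treated cells 25 fell and 0 rose, and with the fraction alone 26 fell and 0 rose. For the fraction against vehicle with LPS, 13 were lower and 1 higher, and 32 had the sign of the probe set used. The interaction was called positive for 5 and negative for 0. No gene was called in both directions in any of these comparisons.

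The rest of the pathway was followed through 3 further lists that leave out the members. Of 36 tested genes of replication and its accessory factors, LPS in vehicle lowered 31 and raised 0 (21.8% and 10.1% of all genes), with a median of -0.76. The fork protein Wdhd1 moved most (-1.89 ± 0.15, adjusted p = 1.50e-08). The fraction alone lowered 23 and raised 2 (15.3% and 15.9% of all genes), with a median of -0.39, from the phosphatase Cdc25a (-1.31 ± 0.10) to the helicase Recql4 (0.48 ± 0.17). With LPS, the fraction was lower for 7 and higher for 3, shares near the 12.7% and 11.1% of all genes. The interaction was called higher for 5 of 36 (0.892% of all genes), the largest in the nuclease Exo1 (1.08 ± 0.15, adjusted p = 7.37e-04).

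The 23 tested G1/S regulators did not move as one. LPS in vehicle lowered 16 and raised 3 (21.8% and 10.1% of all genes), the second a share near that of all genes. The 3 were the transcription factor Myc (3.46 ± 0.35, adjusted p = 3.64e-07), the D-type cyclin Ccnd2 (0.89 ± 0.21, adjusted p = 0.0026) and the Cdk inhibitor Cdkn1a (0.54 ± 0.11, adjusted p = 6.30e-04). The repressor E2f8, a known E2F target, fell most (-2.40 ± 0.16, adjusted p = 1.87e-09). Ccnd1 and Ccnd3 fell (-0.62 ± 0.12 and -0.60 ± 0.13), as did Cdk2 (-0.93 ± 0.12) and its inhibitor Cdkn1b (-0.68 ± 0.15). The fraction alone lowered 10 and raised 4, where 15.3% of all genes fell and 15.9% rose, so the share that rose is near that of all genes. The 4 were Myc (1.28 ± 0.35, adjusted p = 0.0084), Ccnd2 (0.90 ± 0.21, adjusted p = 0.0024), Rb1 (0.44 ± 0.11, adjusted p = 0.0063) and Rbl2, the last 2 being pocket proteins that hold E2F factors. Cdkn1a was -0.10 ± 0.11 with the fraction alone.

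Genes of mitosis, which act after S phase, were tested for 24 of 25. LPS lowered 22 and raised 0 in vehicle-treated cells (median -0.76), where 21.8% of all genes fell and 10.1% rose. In fraction-treated cells it again lowered 22 and raised 0 (median -1.04), against 25.8% and 11.5% of all genes. The fraction alone lowered 6 and raised 1 (15.3% and 15.9% of all genes), with a median of -0.15, from Ccnf (-0.78 ± 0.16) to the kinetochore gene Ndc80 (0.56 ± 0.21). With LPS the fraction lowered 12 and raised 0 (12.7% and 11.1% of all genes), with a median of -0.43. The mitotic kinase Plk1 fell most (-0.86 ± 0.12, adjusted p = 3.75e-05). The median interaction was -0.26 and 0 were called in either direction. The members had a median of -0.60 with the fraction alone and of 0.46 for the interaction. The difference between the lists was not tested.

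**Figure D4:**
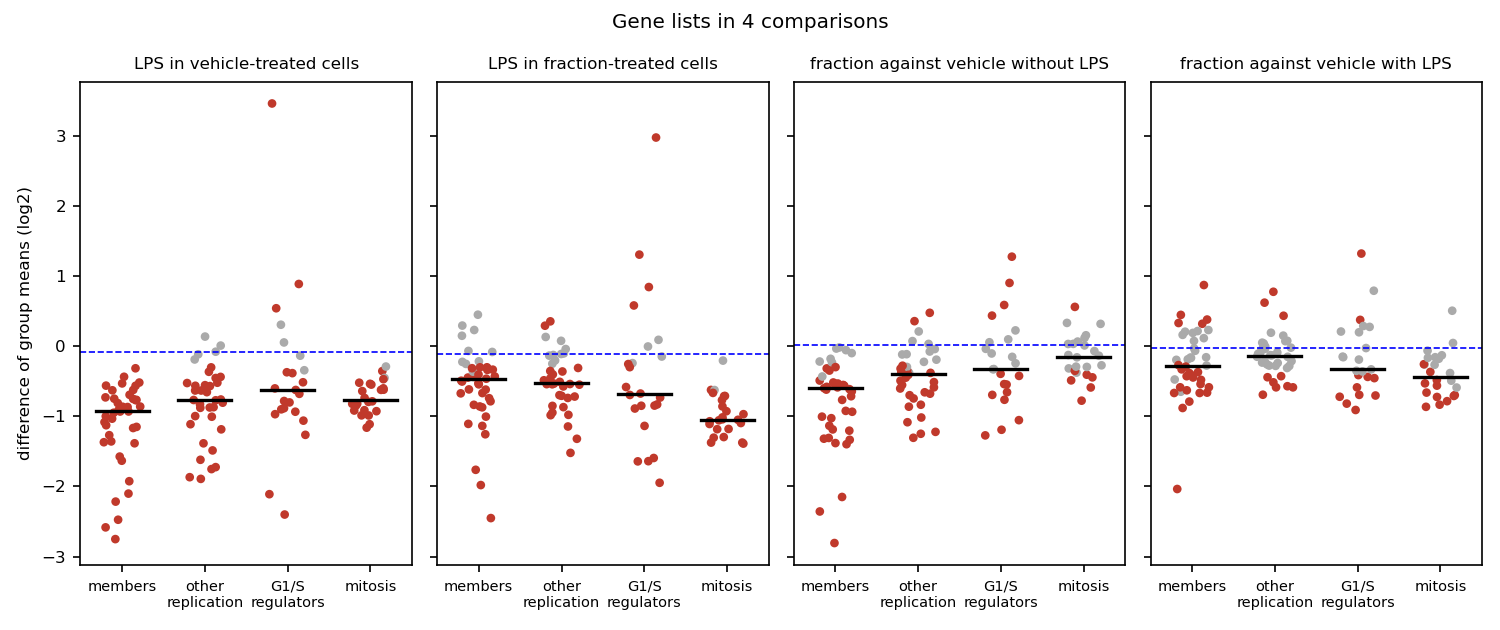
Log2 differences of the members, other replication genes, G1/S regulators and mitosis genes (points, red where the adjusted p was under 0.05, grey otherwise) in 4 comparisons, with each list's median as a bar and the median of all tested genes as a dashed line. The member and mitosis lists both lie below the dashed line with LPS in vehicle-treated cells, while for the fraction without LPS the members centre on -0.60 and the mitosis genes on -0.15.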

How the data were processed

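Total RNA of 18 samples of RAW264.7 cells was measured on Affymetrix Mouse Genome 430 2.0 arrays. The authors deposited 1 linear intensity for each of 45101 probe sets, computed with MAS5 per the submitters' processing notes (version not given in the sources used here). The 2% trimmed mean was 500.0 on all arrays, so a change in total RNA per cell would not be seen. Precision was limited by the 3 arrays per group.

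Control probe sets (64) were left out, intensities under 1 were set to 1, and log2 was taken. Probe sets at or above the array median on at least 3 arrays were kept. The brightest kept probe set with 1 symbol stood for each of 11547 genes, and for 8 members that probe set can cross-hybridize by its design suffix. Of 93 member probe sets 82 were kept. Limma 3.58.1 (R 4.3.3) fitted 6 group means (12 residual degrees of freedom, eBayes with trend) and 12 contrasts, two-sided, with Benjamini-Hochberg adjustment and a threshold of 0.05. The procedure was tested on simulated data with independent noise and changes added to vehicle with LPS alone. It was read for LPS in vehicle-treated cells only. Shared deviation of same-numbered arrays, shifts of whole arrays and the interaction were not simulated. Alternatives were the normalization, log2 of the value plus 32, filters, probe set choice, a replicate block, only the compared arrays and arrays left out; centring on kept probe sets, leaving out cross-hybridizing probe sets and a floor at the array median were added after seeing the data. All 41 members may be named, and arrays are given for members with the largest change per role, with a called interaction or against the common direction. Members and lists were chosen with earlier results of these data known.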

Additional observations from a re-analysis of the deposited data

Results flagged for a closer look

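For 11 members the LPS difference in fraction-treated cells differed from that in vehicle-treated cells by the interaction test of limma, with the adjusted p over all tested genes. Each interaction was positive. The largest, that of Tyms, includes array 2 of vehicle with LPS, where Tyms lay close to the array median. The values were 1.81 ± 0.36 (adjusted p = 0.01) for Tyms, 1.48 ± 0.24 (adjusted p = 0.0024) for Cdc6, 1.16 ± 0.17 (adjusted p = 0.001) for Mcm10, 1.15 ± 0.15 (adjusted p = 3.68e-04) for Rpa2 and 1.06 ± 0.16 (adjusted p = 0.0016) for Orc1. Smaller ones were 0.82 ± 0.20 (adjusted p = 0.032) for Rfc3, 0.79 ± 0.19 (adjusted p = 0.03) for Uhrf1, 0.77 ± 0.16 (adjusted p = 0.017) for Fen1, 0.74 ± 0.17 (adjusted p = 0.023) for Chek1, 0.67 ± 0.16 (adjusted p = 0.029) for Pola2 and 0.62 ± 0.10 (adjusted p = 0.0018) for Slbp. For Tyms, Mcm10, Orc1 and Pola2 the LPS difference in fraction-treated cells was above 0 but did not pass the test; for the other 7 it was below 0. With 1 array per group left out, each of the 11 was lost in at least 1 case, and Orc1 and Rpa2 were the 2 that passed without the arrays numbered 3. Over all 27 other settings, Pola2 was lost under 15, Uhrf1 under 14, Rfc3 under 13 and Chek1 under 11.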

How the results depend on the processing

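The number of members called for LPS in vehicle-treated cells (41) stayed between 38 and 41 with arrays left out, that for LPS in fraction-treated cells (31) between 25 and 30, and that for the fraction without LPS (33) between 28 and 33. The corresponding ranges were 36 to 39 for LPS in 4CS-treated cells, 24 to 31 and 17 to 24 for the fraction against 4CS without and with LPS, and 0 to 1 for 4CS against vehicle over both states. For the fraction against vehicle with LPS (24) the range was 13 to 21, with 13 reached without array 1 of vehicle with LPS, and 13 and 14 without the arrays numbered 2 and 3. Median centring gave 15 there and only the compared arrays 14. The interaction (11) ranged from 0 to 17: 0 without the arrays numbered 2, 2 without those numbered 3, 7 without array 2 and 17 without array 1 of vehicle with LPS. It gave 7 with the mean of kept probe sets, 6 without an intensity trend and 7 with only the compared arrays. The cause was not tested. Slbp changed sign for LPS in fraction-treated cells with the mean of kept probe sets, to 0.025 (adjusted p = 0.91). Members called under every alternative numbered 36 of 41 for LPS in vehicle, 17 of 31 for LPS in the fraction, 25 of 33 and 9 of 24 for the fraction without and with LPS, and 0 of 11 for the interaction.

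Centring each array on the median of its kept probe sets moved the median of all genes by 0.12 for LPS in vehicle and by 0.16 for LPS in the fraction, and gave 40 and 0 members lower and higher in the first and 19 and 2 in the second. Median centring over all probe sets moved the first by -0.13, with 41 lower. Replicate numbers are shared between groups in the labels. Same-numbered arrays of different groups deviated together weakly (r from 0.018 to 0.170, 9 of 45 pairs over 0.1), and differently numbered ones had r from -0.133 to 0.052. All 18 arrays correlated best with their own number, a hint from the data and not from the design. The main model did not include the number. With the number as a replicate block, 41, 33, 34 and 24 members were called in the 4 simple contrasts and 16 in the interaction.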

Other observations

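Pairs of comparisons that share no array could be set side by side over the 41 members, as a description and without a test, since the genes are not independent and share the arrays' scaling. The LPS differences in vehicle-treated and in 4CS-treated cells had a Pearson r of 0.97 over the members and 0.78 over all 11547 genes. Those in vehicle-treated and fraction-treated cells had 0.74 and 0.76. The LPS difference in 4CS-treated cells and the fraction difference without LPS had 0.67 over the members and 0.036 over all genes. The LPS difference in vehicle-treated cells and the difference between fraction and 4CS without LPS had 0.69 and 0.064.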
